A study of Mus musculus with 6 samples.

Results

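Triglyceride is the form in which cells store fatty acids, and the 10 genes described here encode enzymes that build it, proteins that coat the lipid droplets that hold it, and the lipase that begins its breakdown. They are Gpam, Mogat1, Mogat2, Dgat1, Dgat2, Scd1, Plin2, Plin3, Plin5 and Pnpla2. Each was found by probes whose annotated transcript is a RefSeq transcript of the gene, which gave 10 probes, 1 per gene, among the 20284 genes with a named probe. The study compared kidney RNA from male mice of the inbred C57BL/6 strain at the age of 2 months (young) and 20 months (aged), with 3 samples per age. The labels name no treatment, transgene or mutation in either age group, and they describe independent RNA preparations without saying if these were of different mice, so errors and p-values cover only how these 6 samples scatter, part of which may be technical. Every sample had 1 single-colour Agilent array, where the brightness of a spot stands for the amount of a transcript. The genes were chosen by their log2 signals in young and aged kidney, so the differences between the ages are given as a description, with no test.

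In the glycerol-3-phosphate route, an acyl group is added to glycerol-3-phosphate, then further acyl groups are added until triglyceride is formed. In the monoacylglycerol route, best known from the absorbing cells of the small intestine, monoacylglycerol is acylated directly. Both routes end at diacylglycerol, which diacylglycerol acyltransferases turn into triglyceride, and perilipins coat the droplet and control the access of lipases. In the kidney, the proximal tubule takes up and oxidises fatty acids as its main fuel.

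All 6 arrays lay on 1 slide, with the young samples in one row and the aged samples in the other, which means that age and slide row cannot be told apart. The replicate number was the slide column in both ages. Of 55681 probes, the share well above background was 55.3% to 72.9% per young array and 46.3% to 62.8% per aged array, and replicate 3 was the dimmest array of each age. All 10 genes were well above background on all 6 arrays, none of their spots was saturated or marked as an outlier, and each had 1 spot per array. Markers of the kidney were present as labelled, since all 12 proximal tubule markers and all 10 markers of the distal nephron and collecting duct were well above background on every array. Precision is limited by having 3 arrays per age.

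Mogat2 was lower in aged kidney, Scd1 was higher by a smaller amount, and the other 8 genes differed by less than 0.15 on the log2 scale in either direction. Values are log2 processed signals minus the array's 75th percentile (normalised log2 signal), and differences are aged minus young. The aged arrays lay wholly below the young arrays for 1 gene, Mogat2, and wholly above them for 1 gene, Scd1, while the ages overlapped for 8. Over all 14545 genes tested, the aged arrays lay below the young ones for 11.5% and above them for 10.4%. The median difference was -0.01 over the 10 genes and also -0.01 over all genes tested. In whole-tissue RNA, fewer cells of a type and less RNA per cell cannot be told apart.

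**Figure D1:**
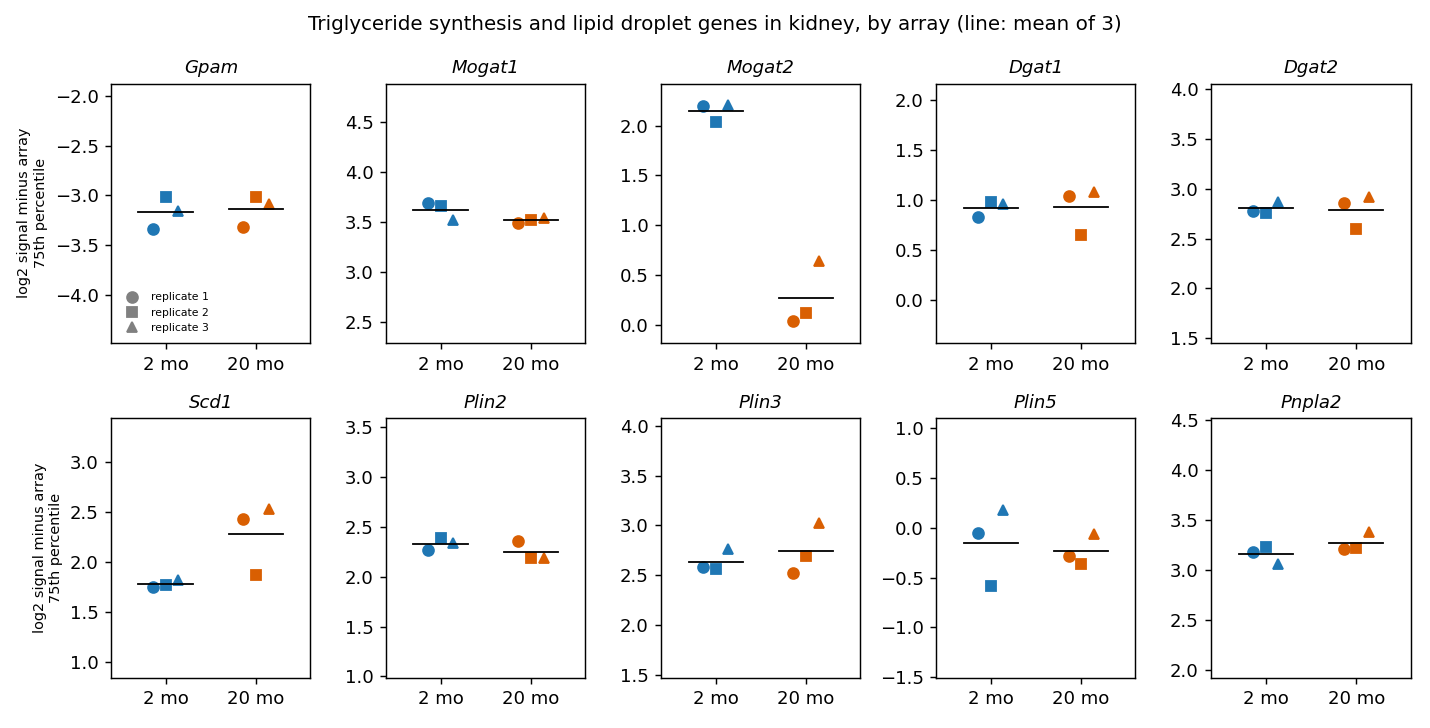
Normalised log2 signal (log2 processed signal minus the array's 75th percentile) of the 10 genes on each array, with young (2 mo, blue) and aged (20 mo, orange) samples side by side, marker shape giving the replicate and lines the mean of 3 arrays. Each panel spans the same range of log2 units. Mogat2 separates the ages widely, Scd1 separates them with aged replicate 2 close to the young arrays, and the other 8 genes overlap.

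Gpam encodes the mitochondrial glycerol-3-phosphate acyltransferase, which adds the first acyl group in the glycerol-3-phosphate route. Its normalised log2 signal was -3.34, -3.02 and -3.15 on young replicates 1, 2 and 3 and -3.31, -3.02 and -3.09 on aged replicates 1, 2 and 3. The ages overlapped, with replicate 1 the lowest of each age, and the difference was 0.03 ± 0.13 (SE of the fit across all genes, n = 3 per age, as for all differences below).

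Mogat1 and Mogat2 encode monoacylglycerol acyltransferases, which make diacylglycerol in the monoacylglycerol route. For Mogat1 the normalised log2 signal was 3.68, 3.66 and 3.52 on young replicates 1, 2 and 3 and 3.49, 3.52 and 3.54 on the aged replicates. The highest aged array lay just above the lowest young one, so the ages overlapped, and the difference was -0.11 ± 0.10. Young Mogat1 averaged 3.62 ± 0.09 and aged Mogat1 3.51 ± 0.03 (SD, n = 3 each).

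Mogat2 had a normalised log2 signal of 2.20, 2.04 and 2.20 on young replicates 1, 2 and 3 and of 0.04, 0.12 and 0.64 on aged replicates 1, 2 and 3. The young arrays lay close together, and every aged array lay far below them, with aged replicate 3 the highest of its age. The young mean was 2.14 ± 0.09 and the aged mean 0.27 ± 0.33 (SD, n = 3 each), so Mogat2 differed by -1.88 ± 0.17, a level 3.67-fold lower in aged kidney. As processed signal before any scaling, Mogat2 read 19994, 16654 and 13304 in young samples 1, 2 and 3, against 4622, 4576 and 4209 in the aged samples. The separation was thus present in the processed signals before arrays were scaled, where the dimmest young array was still brighter than every aged one. Leaving out any 1 array gave differences from -2.06 to -1.76.

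Dgat1 and Dgat2 encode the diacylglycerol acyltransferases of the last step, which are unrelated in sequence to each other, Dgat2 belonging to the same gene family as Mogat1 and Mogat2. Dgat1 had a normalised log2 signal of 0.83, 0.98 and 0.96 on young replicates 1, 2 and 3 and of 1.05, 0.65 and 1.08 on the aged replicates, a difference of 0.00 ± 0.14. Aged replicate 2 was the lowest of all 6 arrays and the other aged arrays the highest. Dgat2 had 2.78, 2.76 and 2.87 in young samples, against 2.86, 2.59 and 2.91 in aged samples, a difference of -0.01 ± 0.12. Its order of arrays was like that of Dgat1 in aged kidney, and the ages overlapped.

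A log2 ratio of 2 genes within an array does not change when a constant is subtracted from the whole array. Quantile normalisation and another background correction can change it. The log2 ratio of Mogat2 to Mogat1 averaged -1.48 in young and -3.25 in aged samples, a difference of -1.77. The ratio of Mogat2 to Dgat2 differed by -1.86, and over the 9 other genes the difference in the ratio ran from -2.38 for Scd1 to -1.77 for Mogat1. Each of these values is the difference of Mogat2 minus that of the other gene, so they restate those differences and are no separate evidence. Only the change of a ratio between ages can be read, since the level of one probe cannot be set against that of another. In the RefSeq annotation of the mouse genome, Dgat2 is the protein-coding gene next to Mogat2 on chromosome 7, so these neighbours of 1 gene family differed by -0.01 and -1.88. On the other side, Map6 differed by 0.61 ± 0.25 (limma adjusted p = 0.267). Map6 is named for its position, after its value was seen.

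**Figure D2:**
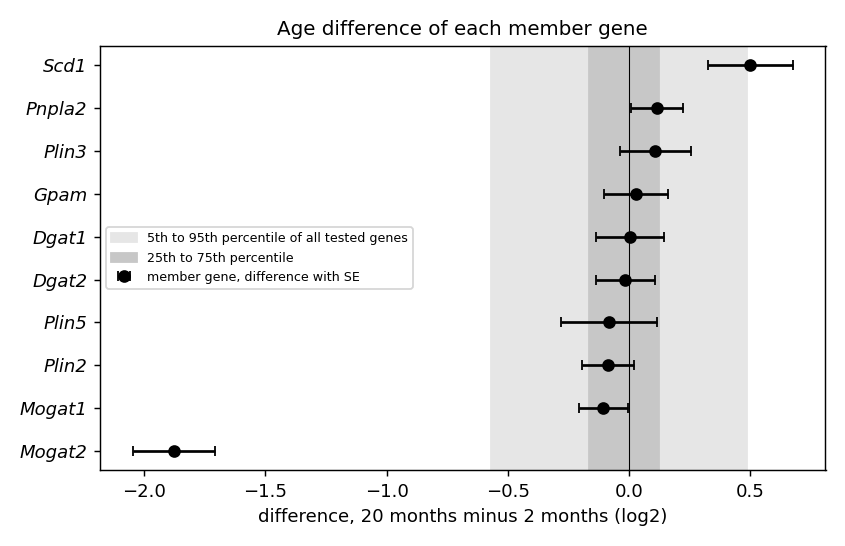
Difference between aged and young kidney (20 months minus 2 months, log2) for each of the 10 genes, with bars for the standard error. Shading marks the middle of all 14545 genes tested, from the 25th to the 75th percentile (-0.16 to 0.12) and from the 5th to the 95th (-0.57 to 0.49). Mogat2 lies far below the shaded range and Scd1 at 0.50, at its upper edge, while the other 8 genes lie within it.

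Scd1 encodes stearoyl-CoA desaturase, which makes the monounsaturated fatty acids that are the preferred substrates of triglyceride synthesis. The normalised log2 signal of Scd1 was 1.75, 1.77 and 1.82 on young replicates 1, 2 and 3 and 2.43, 1.87 and 2.53 on aged replicates 1, 2 and 3. The young arrays agreed closely, and the aged arrays did not: aged replicate 2 lay just above the young ones, and aged replicates 1 and 3 well above. The young mean was 1.78 ± 0.03 and the aged mean 2.28 ± 0.35 (SD, n = 3 each), a difference of 0.50 ± 0.17 or 1.41-fold. Leaving out aged replicate 2 gave a difference of 0.70, and leaving out aged replicate 3 gave 0.38. As processed signal Scd1 read 14729, 13811 and 10186 in young samples 1, 2 and 3, against 24296, 15422 and 15589 in the aged samples.

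Scd2, Scd3 and Scd4 encode related desaturases and lie in a row beside Scd1 on chromosome 19. They were compared because of that position, and Scd3 and Scd4 were chosen after their values were seen. Their differences were -0.40 ± 0.12 for Scd2 (limma adjusted p = 0.143), -0.17 ± 0.12 for Scd3 (adjusted p = 0.535) and -0.67 ± 0.31 for Scd4 (adjusted p = 0.328), so none of the 3 passed the threshold of 0.05. The log2 ratio of Scd1 to Scd2 averaged 0.22 in young and 1.11 in aged kidney, a difference of 0.90 that combines the differences of both genes. On every aged array this ratio was above all 3 young arrays, aged replicate 2 included at 0.87 against a highest young value of 0.28. This had to be so, since every aged array was above the young ones for Scd1 and below them for Scd2. It is therefore no separate evidence. The ratio of Scd1 to Scd3 was 1.49 on aged replicate 2, against a highest young value of 1.35. The Scd genes are close in sequence, and whether their probes share signal was not tested.

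Plin2, Plin3 and Plin5 encode perilipins. Plin2 coats droplets in most tissues, Plin3 moves from the cytosol to newly formed droplets, and Plin5 is best known from tissues with high fatty acid oxidation. Plin2 had a normalised log2 signal of 2.27, 2.39 and 2.34 on young replicates 1, 2 and 3 and of 2.36, 2.18 and 2.19 on the aged replicates, a difference of -0.09 ± 0.11. Aged replicate 1 lay among the young arrays and the other aged arrays below them.

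Plin3 had 2.58, 2.57 and 2.76 in young samples, against 2.52, 2.69 and 3.02 in aged samples, with a difference of 0.11 ± 0.15. Plin5 had -0.06, -0.59 and 0.18 in young samples, against -0.28, -0.37 and -0.06 in aged samples, with a difference of -0.08 ± 0.20. For both, replicate 3 was the highest array of each age, and the aged and young arrays overlapped. The spread of Plin5 among the young arrays (SD 0.39) was the widest of the 10 genes in either age, so a difference of that size could not be told from the spread.

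Pnpla2 encodes adipose triglyceride lipase, which removes the first fatty acid from stored triglyceride. Its normalised log2 signal was 3.18, 3.23 and 3.06 on young replicates 1, 2 and 3 and 3.22, 3.22 and 3.38 on the aged replicates. The ages overlapped, and the difference was 0.11 ± 0.11.

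Aged replicate 3, the dimmest array, held the highest value of its age for 8 of the 10 genes, Mogat2 and Scd1 among them, and for 42.8% of all genes tested. With quantile normalisation this held for 5 of the 10 genes and 37.7% of all, and with median centring for 10 of the 10 and 62.5%. The order of arrays within an age therefore moved with the scaling, while the differences between ages moved little: that of Mogat2 was -1.88 with quantile normalisation and -1.85 with median centring, and that of Scd1 was 0.51 and 0.52.

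The RefSeq promoter table (build GRCm38.p6, from 250 bases before to 50 after the gene's start) held 6 of the 10 genes, in 8 windows, namely Mogat1, Gpam, Plin2, Plin3, Plin5 and Pnpla2. Dgat1, Dgat2, Mogat2 and Scd1 were not matched. The Pnpla2 window is shown because Pnpla2 had the largest difference among the matched genes, small as it was, and the Mogat1 window because Mogat1 is the counterpart of Mogat2. Both lie on the plus strand, at chr1:78510810-78511109 and chr7:141454938-141455237, and capitals mark matches to the E-box CANNTG and, on either strand, to CCAAT.
Mogat1: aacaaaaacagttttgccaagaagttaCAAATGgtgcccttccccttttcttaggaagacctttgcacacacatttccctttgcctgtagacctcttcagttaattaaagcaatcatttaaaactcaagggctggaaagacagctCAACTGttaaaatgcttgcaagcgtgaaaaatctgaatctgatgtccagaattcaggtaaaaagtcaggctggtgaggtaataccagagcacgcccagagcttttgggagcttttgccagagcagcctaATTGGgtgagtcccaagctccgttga
Pnpla2: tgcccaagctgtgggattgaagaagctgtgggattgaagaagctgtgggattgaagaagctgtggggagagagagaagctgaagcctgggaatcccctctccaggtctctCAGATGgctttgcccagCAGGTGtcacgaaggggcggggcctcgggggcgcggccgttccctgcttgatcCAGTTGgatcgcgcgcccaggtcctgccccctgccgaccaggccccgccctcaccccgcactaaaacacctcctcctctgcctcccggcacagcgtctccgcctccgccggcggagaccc
The Mogat1 window held 2 E-box matches and 1 CCAAT match, read as ATTGG on the strand shown, and the Pnpla2 window held 3 E-box matches and no CCAAT. Guanine and cytosine made up 43.7% of the Mogat1 window and 65.3% of that of Pnpla2, against a median of 52.7% over all windows of the table. An E-box was present in 6 of the 8 windows and in 72.3% of all 32851 windows, CCAAT in 5 of the 8 and in 37.4% of all, and the single nuclear receptor site AGGTCA in 4 of the 8 and in 16.3% of all. The AGGTCA matches were in Gpam, Plin2 and both windows of Plin5. The Plin5 windows overlap in part, but their AGGTCA matches are separate sites outside the shared bases. All motifs were searched on both strands, and a DR1 match contains AGGTCA. The DR1 motif bound by PPAR receptors, a direct repeat of AGGTCA with 1 base between, (0.04% of all windows), the sterol response motif TCACNCCAC (1.24%) and TATAAA (13.6%) were in none of the 8. A match is one of letters within this window.

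The genes around these steps were taken from 4 lists that leave out the 10 genes, and they were tested with limma, with Benjamini-Hochberg adjustment over all genes. Of 127 tested genes in the 4 lists, 4 were higher and 5 lower in aged kidney at an adjusted p under 0.05, which is 7.09%, against 3.38% of all genes tested. All genes split into 1.98% higher and 1.4% lower. By list, the share that passed was 4.55% in glycerolipid synthesis and 6.06% among droplet proteins. It was 5.71% in fatty acid synthesis and 10.8% in fatty acid uptake. The median change over the 127 genes was -0.01, the same as over all genes tested.

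In the list of glycerolipid synthesis and fatty acid activation, 1 of 22 tested genes rose, 0 fell and 21 did not pass, with a median change of -0.01 (limma; with an unadjusted p under 0.05, 1 was higher and 3 lower, against 17.1% of all genes tested in either direction). The gene that rose was Acsbg1, an acyl-CoA synthetase of the bubblegum family, with normalised log2 signals of -4.30, -4.02 and -4.15 on young replicates 1, 2 and 3 and -2.17, -2.43 and -2.29 on the aged replicates. Acsbg1 was 3.63-fold higher (1.86 ± 0.12, limma adjusted p = 0.000697), the aged arrays lay above the young ones in 3 of 3 samples, and the call held under all 17 alternatives tried. The size of its change was smaller with normexp background correction, at 1.49. Lpin2, a phosphatidate phosphatase that makes diacylglycerol, changed by -0.75 ± 0.20 (adjusted p = 0.1), Acsl3, an acyl-CoA synthetase of lipid droplets, by -0.34 ± 0.11 (adjusted p = 0.156) and Acsl6 by -0.44 ± 0.18 (adjusted p = 0.269). The enzymes between Gpam and the Dgat step, Agpat1 to Agpat5 and Lpin1 and Lpin3, named after their values were seen, did not pass either.

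In the list of lipid droplet proteins and lipolysis, 1 of 33 genes rose, 1 fell and 31 did not pass, with a median change of 0.04. With an unadjusted limma p under 0.05, 3 were higher and 2 lower, against 17.1% of all genes tested in either direction. Plin4, a perilipin of adipocytes and muscle, had -2.98, -2.93 and -1.72 on young replicates 1, 2 and 3 and -0.57, -0.77 and -0.95 on the aged replicates, and rose 3.43-fold (1.78 ± 0.32, limma adjusted p = 0.0294). The adipocyte droplet proteins Cidec (1.71 ± 0.50, adjusted p = 0.129) and Plin1 (1.29 ± 0.49, adjusted p = 0.231) did not pass. Ces3a, a carboxylesterase, fell by 0.95 ± 0.13 (limma adjusted p = 0.0123), and it was well above background on 2 of 3 aged arrays. The call of Plin4 was lost in 6 of 17 alternatives (adjusted p up to 0.174) and that of Ces3a in 4 of 16 (adjusted p up to 0.458), and without aged replicate 2 no gene of this list passed. With normexp background correction the change of Ces3a was -0.34.

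Plin4, Cidec and Plin1 are also markers of adipocytes, so they stand in both lists and one list is no separate evidence for the other. Of the 12 adipocyte markers, which also share Lipe with the droplet list, 10 were tested, 9 of these were higher in aged kidney by value and Plin4 alone passed with limma, while Lipe (0.14), Fabp4 (0.07) and Car3 (-0.12) differed little. Their median normalised log2 signal was -2.18, -1.40 and -1.09 on young replicates 1, 2 and 3 and -0.06, -0.27 and -0.25 on the aged replicates. Their summed signal, in units of the array's 75th percentile, was 25.8 to 42.2 in young and 40.9 to 44.6 in aged kidney. Fabp4 and Car3 together made up most of that sum on every array. Adipoq, the adipocyte hormone adiponectin, was well above background on all 6 arrays, while Lep, encoding leptin, was above background on 0 of 3 young and 1 of 3 aged arrays, and Ucp1, of brown fat, on 2 of 3 young and 0 of 3 aged arrays. Macrophage markers were higher by value in 9 of 9 tested genes. Of these Trem2 and C1qc passed, which is 22.2%, against 3.38% of all genes tested. The summed signal of the macrophage markers was 46.0 to 54.8 in young and 59.0 to 68.7 in aged kidney. Itgam, named after its value was seen, made up most of that sum on every array. Its ages overlapped, with a difference of 0.16 ± 0.13 (limma adjusted p = 0.563). The part of adipocytes and macrophages in the values of Scd1 and Plin4 was not tested.

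The summed signal of the 7 urothelium markers was far higher on young replicate 1 than elsewhere, with a value of 5.41 against 0.80 on both other young arrays and 0.53 to 0.72 on the aged arrays. All 5 tested urothelium markers were lower in aged kidney by value (median change -1.37), and Upk3b passed (-1.79, limma adjusted p = 0.01). The size of most of these changes rests on young replicate 1. Upk1a, Upk2 and Upk3a were by far highest there, although all their young arrays lay above the aged ones. Krt19, named after its value was seen, was lower only through that array. It had -0.12, -3.00 and -2.56 on young replicates 1, 2 and 3 and -2.76, -1.92 and -1.82 on the aged replicates. Upk3b did not stand out on young replicate 1, with normalised log2 signals of -1.93, -2.01 and -2.46 on young replicates 1, 2 and 3 and -4.39, -3.79 and -3.59 on the aged replicates, so it was higher on all 3 young arrays than on any aged array, as Mogat2 was. Without young replicate 1 the difference of Mogat2 was -1.85. The part of the urothelium in the value of Mogat2 was not tested. Proximal tubule markers had a summed signal of 162 to 167 in young and 147 to 178 in aged kidney, and 0 of 12 passed with limma, with 0 at an unadjusted p under 0.05.

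**Figure D3:**
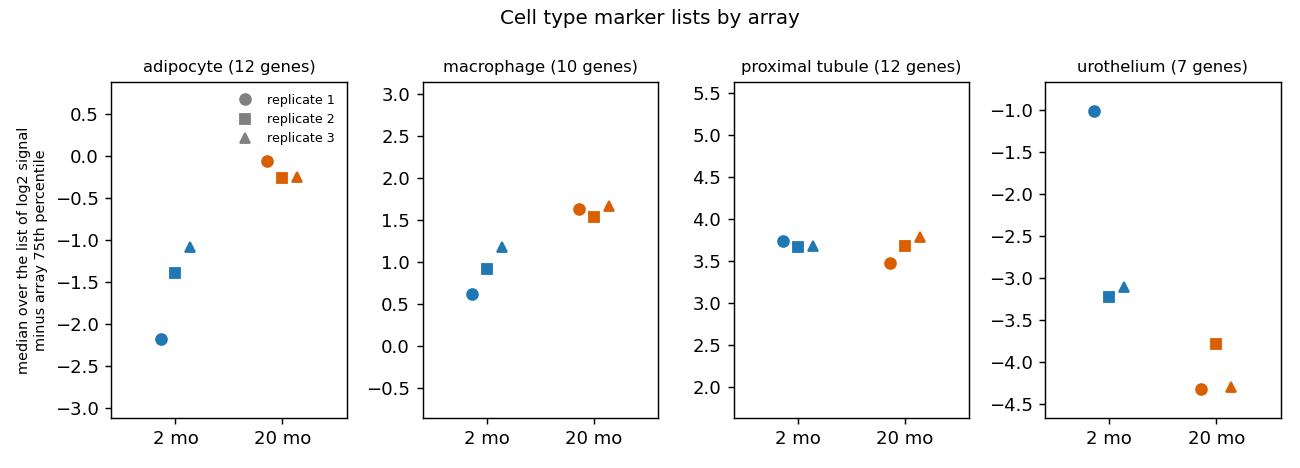
Median normalised log2 signal over each marker list on every array, for adipocytes, macrophages, the proximal tubule and the urothelium, with young arrays in blue and aged arrays in orange. Each panel spans 4 log2 units. Adipocyte and macrophage medians are higher on all 3 aged arrays than on the young ones, proximal tubule medians overlap at 3.47 to 3.78, and the urothelium median stands out at -1.01 on young replicate 1.

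In the list of fatty acid synthesis, desaturation and elongation, 2 of 35 tested genes fell, 0 rose and 33 did not pass (median change -0.07; with an unadjusted limma p under 0.05, 4 were lower and 0 higher, a smaller share than the 17.1% of all genes). Elovl2, an elongase of polyunsaturated fatty acids, had 0.77, 0.99 and 0.82 on young replicates 1, 2 and 3 and 0.13, -0.20 and -0.34 on the aged replicates, and fell by 1.00 ± 0.14 (limma adjusted p = 0.0138). Hacd1, a dehydratase of the elongation cycle, fell by 0.53 ± 0.11 (adjusted p = 0.0453). Scd2 is given above, and Fads6 changed by -0.32 ± 0.12 (adjusted p = 0.231). Named after their values were seen, Fasn, the fatty acid synthase, changed by -0.18 ± 0.11 (adjusted p = 0.463), Acaca, which makes its substrate malonyl-CoA, by 0.30 ± 0.15 (adjusted p = 0.351) and Srebf1, a transcription factor of fatty acid synthesis that acts on Scd1, by -0.12 ± 0.16 (adjusted p = 0.749). The call of Hacd1 was lost in 10 of 17 alternatives (adjusted p up to 0.207) and that of Elovl2 in 3 (adjusted p up to 0.115), and no gene of the list passed without young replicate 2 or without aged replicate 2.

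In the list of fatty acid uptake, lipoprotein assembly and targets of PPAR receptors, 2 of 37 tested genes rose and 2 fell. The other 33 did not pass. The share that passed was 10.8%, against 3.38% of all genes tested, and the median change was -0.11. With an unadjusted limma p under 0.05, 6 were higher and 7 lower, a larger share than the 17.1% of all genes. Creb3l3, a membrane-bound transcription factor of lipid metabolism best known from liver, rose by 1.33 ± 0.21 (limma adjusted p = 0.0184). It was dim, with -5.44, -5.09 and -4.95 on young replicates 1, 2 and 3 and -4.09, -3.99 and -3.40 on the aged replicates. With normexp background correction the change of Creb3l3 was 0.96. Gpihbp1, the endothelial anchor of lipoprotein lipase, rose by 0.65 ± 0.12 (adjusted p = 0.0342). Ppard, the nuclear receptor PPAR delta, had 2.31, 1.89 and 1.58 on young replicates 1, 2 and 3 and 0.96, 0.84 and 0.97 on the aged replicates, and fell by 1.00 ± 0.18 (adjusted p = 0.03). Ucp3, a mitochondrial carrier of muscle and a PPAR target, fell by 0.72 ± 0.11 (adjusted p = 0.0161). Ppara, named after its value was seen, changed by 0.06 ± 0.12 (adjusted p = 0.862). These calls were lost in 6, 8, 6 and 4 of 17 alternatives for Creb3l3, Gpihbp1, Ppard and Ucp3 (adjusted p up to 0.165, 0.157, 0.168 and 0.111), and no gene of the list passed without young replicate 1 or without aged replicate 2.

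**Figure D4:**
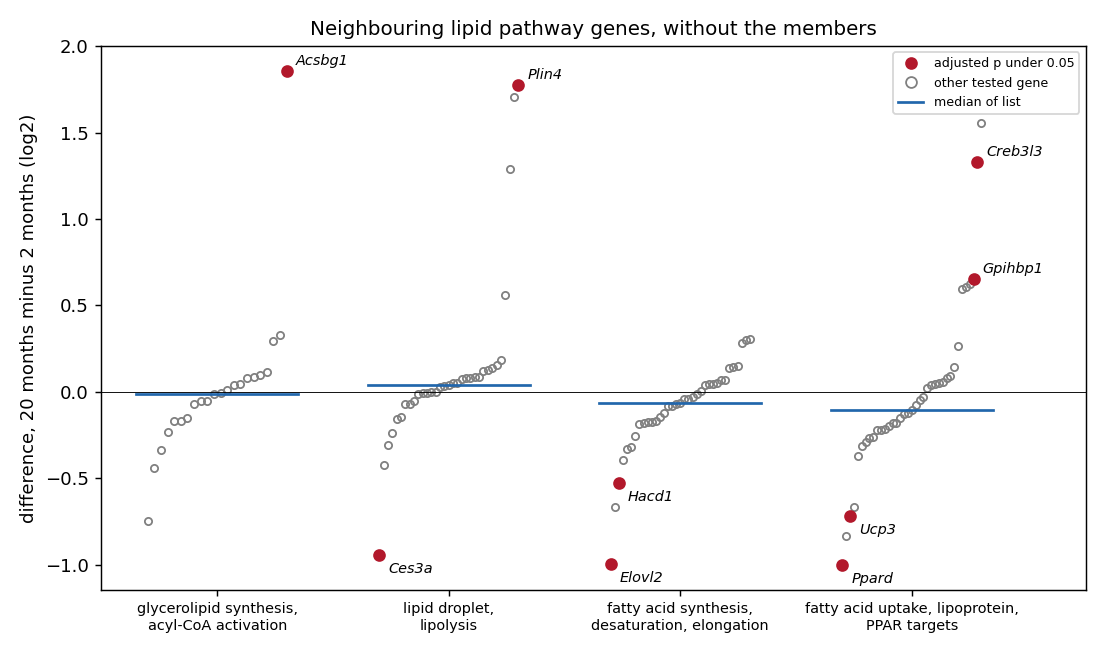
Difference between aged and young kidney (log2) for every tested gene of the 4 lists, sorted within each list, with filled red points for the 9 genes at an adjusted p under 0.05 and a blue line for the list's median. Most points lie near 0, and the called genes lie at both ends.

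The genes with values most like those of the 3 most different genes were found by the root mean square difference of log2 values over the 6 arrays after each gene's mean was subtracted, where a smaller value means a closer pattern. For Mogat2 these were Clic6 (0.21), Upk3b (0.25) and Eln (0.26), whose differences were -1.93, -1.79 and -1.76. Upk3b is also one of the 7 urothelium markers, but it did not stand out on young replicate 1 as Upk1a, Upk2 and Upk3a did. For Scd1 they were Arhgap30 (0.05), Rfx7 (0.06) and Sh2d2a (0.10), with differences of 0.58, 0.41 and 0.45. Each of the 3 had its lowest aged value on replicate 2, as Scd1 did, which follows from choosing them by likeness to Scd1. For Pnpla2 they were Zc3h11a (0.02), Ublcp1 (0.02) and Map2k1 (0.03), with differences of 0.11, 0.10 and 0.09.

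**Figure D5:**
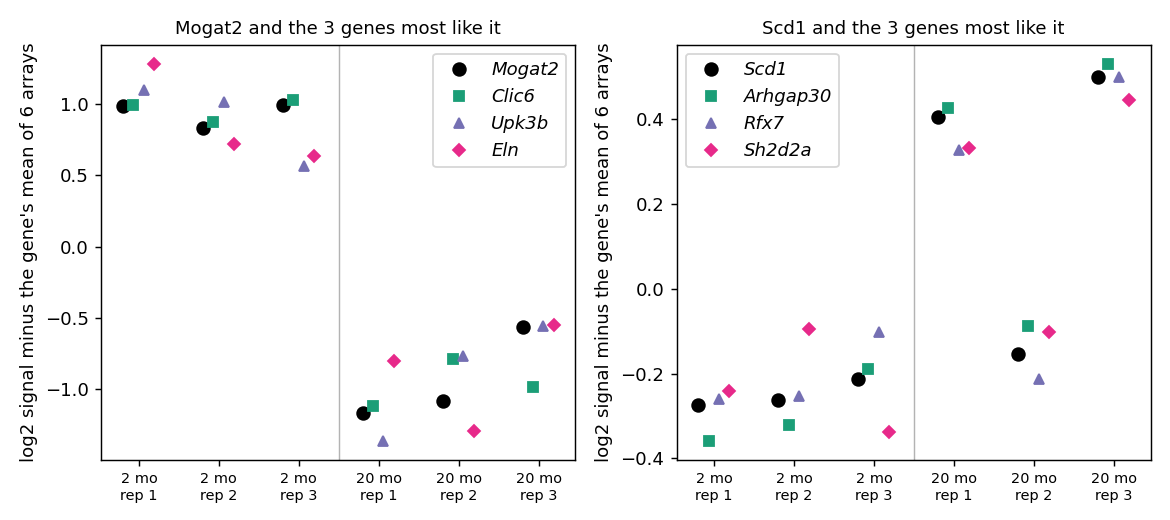
Log2 signal minus the gene's mean over 6 arrays, for Mogat2 (left) and Scd1 (right) and the 3 genes nearest to each, on young arrays left and aged arrays right of the grey line. The Mogat2 panel shows every aged point below every young point, and the Scd1 panel shows aged replicate 2 near the young arrays for all 4 genes. The genes were chosen by this likeness, so the shared patterns are no separate evidence.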

How the data were processed

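Per the labels, the RNA was isolated with Trizol and Cy3 label was built in by Klenow extension of random primers. Per the file headers, Agilent design 028005 was read with Feature Extraction 11.5.1.1, and the processed signal intensity deposited by the authors is linear, has background subtracted and a spatial trend removed, and is not scaled between arrays. The authors' deposited value table is on the log2 scale and matched each probe's log2 processed signal minus a constant per array, with departures up to 1.56 for some probes and column medians of -4.24 to -3.98.

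Control and outlier spots were left out, replicate spots were averaged as log2 values, and the array's 75th percentile over its non-control spots was subtracted. Tested probes (30821 of 55681) were well above background on every array of 1 or both ages. Through RefSeq transcripts 26762 probes were given a gene, each gene took its brightest probe, and 14545 genes entered limma (lmFit, eBayes, Benjamini-Hochberg, threshold 0.05). On simulated data for aged against young with 14545 genes, changes of 0.5, 1 and 2 (log2) were given to 67, 67 and 66 genes. They were recovered for 14.9%, 80.6% and 98.5% of these, and 8 of 137 calls were false. The number of changed genes and the noise in the data may differ from those simulated.

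The 10 genes and all lists were chosen with earlier results of these data known. Named are the 10 genes, list genes past the threshold, the 4 smallest p per list, defining markers of the marker lists used, and the 3 genes most like each of the 3 members with the largest differences. Other names are marked as chosen after values were seen or for their position. Among further marker lists, 0 of 6 podocyte and 0 of 6 endothelial genes passed limma (0 of each at an unadjusted p under 0.05), as did 0 of 10 distal nephron genes (3 unadjusted) and 1 of 2 tested adrenal cortex genes. Alternatives changed the centring, background correction, filters, probe rule, variance model, array weights, replicate block and single arrays. Software was R 4.3.3, limma 3.58.1, version 1.17.8 of data.table, Python 3.11.15 and matplotlib 3.10.9.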

Additional observations from a re-analysis of the deposited data

How the results depend on the processing

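The differences of the 10 genes moved by less than the spread between replicates under all 17 alternatives, but most of these could not have moved them further. The filters, outlier spots, probe rule, variance model and replicate block left these differences unchanged, and leaving out 1 of 3 arrays cannot shift a mean that far. Only the centring, the background correction, the authors' value table and the array weights could have done so. Mogat2 (-2.06 to -1.76), Scd1 (0.38 to 0.70), Mogat1, Plin2 and Pnpla2 kept their sign, and the differences of Dgat1, Dgat2, Gpam, Plin3 and Plin5 crossed 0. Of all genes, limma called 491 (288 higher, 203 lower). It called 773 with median centring (397 higher, 376 lower), 302 with normexp on the median spot signal (210 higher, 92 lower), 782 with array weights and 16 with no filter on dim probes, where more genes were tested. With 1 array left out the count ran from 141 (without aged replicate 2) to 925 (without aged replicate 1). Glycerolipid synthesis had 1 call, and 2 with median centring and with the trended, robust variance model, and 1 to 2 with an array left out. Droplet proteins had 2 calls, 4 with median centring, 1 with normexp, 1 with the variance model, 1 with genes above background on all 6 arrays, 0 with no filter, and 0 to 2 with an array left out. Fatty acid synthesis had 2 calls, 1 with median centring, 1 with normexp, 0 with no filter, and 0 to 1 with an array left out. Fatty acid uptake had 4 calls, 7 with array weights, 7 with genes above background on all 6 arrays, 0 with no filter, and 0 to 6 with an array left out. The cause of the other shifts was not tested. After scaling, samples with the same replicate number did not deviate together (correlations 0.06, -0.09 and 0.10). Before scaling they shared their brightness. The array's 75th percentile of signal fell from replicate 1 to replicate 3 in young (4366 to 2892) and in aged kidney (4498 to 2702). The replicate number was also the slide column in both ages. Whether it pairs the samples in another way cannot be read from these values. With the replicate number as a block, 266 genes were called, with 1 call among droplet proteins, 1 in fatty acid synthesis and 3 in fatty acid uptake, and the calls of Hacd1, Ppard, Gpihbp1 and Plin4 were lost. For the 9 called list genes, 105 of 152 refitted values kept the call and 47 lost it, and for the 7 named list genes without a call 6 of 118 gained one. None of these values turned direction.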

Other observations

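Among the 4 protein-coding genes on either side of Mogat2 on chromosome 7, looked at after values were seen, Wnt11, a secreted signalling protein and the third gene before it, was lower in aged kidney by value and test (-2.02 ± 0.26, limma adjusted p = 0.01). Uvrag (-0.22, adjusted p = 0.465) and Dgat2, which lie between Wnt11 and Mogat2, overlapped between the ages. Serpinh1, the collagen chaperone on the other side of Map6, differed by -0.39 ± 0.12 (adjusted p = 0.156).

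Some further lipid genes lay just outside the threshold and are named after their values were seen. Apob, the structural protein of very low density lipoprotein, changed by 1.56 ± 0.35 (limma adjusted p = 0.0594) and Mttp, which loads lipid onto it, by 0.60 ± 0.14 (adjusted p = 0.0641). Pdk4, a kinase that limits glucose oxidation, changed by -0.83 ± 0.19 (adjusted p = 0.0599).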
